A study of Mus musculus with 6 samples.

Results

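A set of 10 genes that mark GABAergic interneurons was examined in the mouse hippocampus: Gad1, Gad2, Slc32a1, Pvalb, Sst, Vip, Npy, Cck, Reln and Calb2. They were listed by name, as genes of GABA synthesis and loading and as markers of interneuron subtypes, and not by a threshold on these data. Earlier results of these data were known when the genes were chosen. All 10 were found among the 52550 genes of the count table, and all 10 passed the filter on low counts (at least 10 counts in at least 3 libraries), which left 17621 genes to test. In the splicing table, 6 of the 10 had a listed event, with 8 events of 40961 in all.

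Interneurons are the inhibitory neurons of the hippocampus. They make GABA from glutamate by 2 glutamate decarboxylases (Gad1 and Gad2), load it into vesicles by the vesicular GABA transporter (Slc32a1), and differ from each other by the calcium-binding proteins and peptides they add to it. Parvalbumin cells target the soma and axon of pyramidal cells, somatostatin cells their distal dendrites, and VIP and calretinin cells largely other interneurons. Several of the marker genes are not particular to interneurons: Cck is also transcribed in pyramidal cells, Calb2 in mossy cells of the dentate hilus, and Reln in Cajal-Retzius cells.

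The libraries came from the hippocampus of male wild-type C57BL/6 J mice injected with adeno-associated virus (AAV) in the CA1 areas of both sides at 8 weeks of age. Each group had 3 libraries. Control mice received a control shRNA. L-DL KD mice received 4 shRNAs in tandem against L-DL, the long isoform of the RNA-binding protein hnRNP D-like. Each of these shRNAs was driven by the H1 promoter, which is active in all cell types. The virus also carried zsGreen under the CamkIIα promoter of excitatory neurons, so the label of injected areas does not mark interneurons, and the control virus was given at a higher titre than the L-DL shRNA virus. The labels name the controls wild type, and name the other mice knockout in one field and knockdown in another. Age at the collection of tissue was not given in the sources used here. Reads counted on genes numbered 16052529 to 16995425 per control library and 16525467 to 17913064 per L-DL KD library. The labels do not say whether each library is 1 animal, so the p-values measure the spread between these libraries.

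The targeted gene was not lower in the 3 libraries of the L-DL KD group, called the KD-labelled libraries below after their label hnRNPDL-KD. For Hnrnpdl, the controls had 2862, 3120 and 2689 counts and the KD-labelled libraries 3939, 2680 and 2904, which overlap (log2 fold change 0.03, 95% interval -0.26 to 0.31). Gene counts do not separate the long isoform from the short one, protein was not analysed here, and every direction below is that of the libraries as labelled.

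The genes of GABA synthesis and loading were all lower in the KD-labelled libraries, at under 50% of the control level. Of the subtype markers, Sst and Cck were lower, Vip, Pvalb, Npy, Reln and Calb2 did not pass the test, and none was higher. In all, 5 of the 10 genes were lower and 0 were higher at an adjusted p under 0.05 (quasi-likelihood test of edgeR, Benjamini-Hochberg adjustment over all tested genes), where 15.0% of all tested genes were lower and 15.6% were higher, 30.5% together. At an unadjusted p under 0.05 with edgeR, 6 were lower and 1 (Reln) was higher, and DESeq2 called 6 lower and 0 higher. The median log2 fold change was -0.71 over the 10 genes and 0.0059 over all tested genes. Summed over the 10 genes, the library-scaled read counts (CPM, after TMM normalisation in edgeR) were 969, 919 and 864 in the controls and 637, 530 and 422 in the KD-labelled libraries, with no overlap. In whole tissue, fewer cells of a type and less RNA per cell cannot be told apart.

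**Figure D1:**
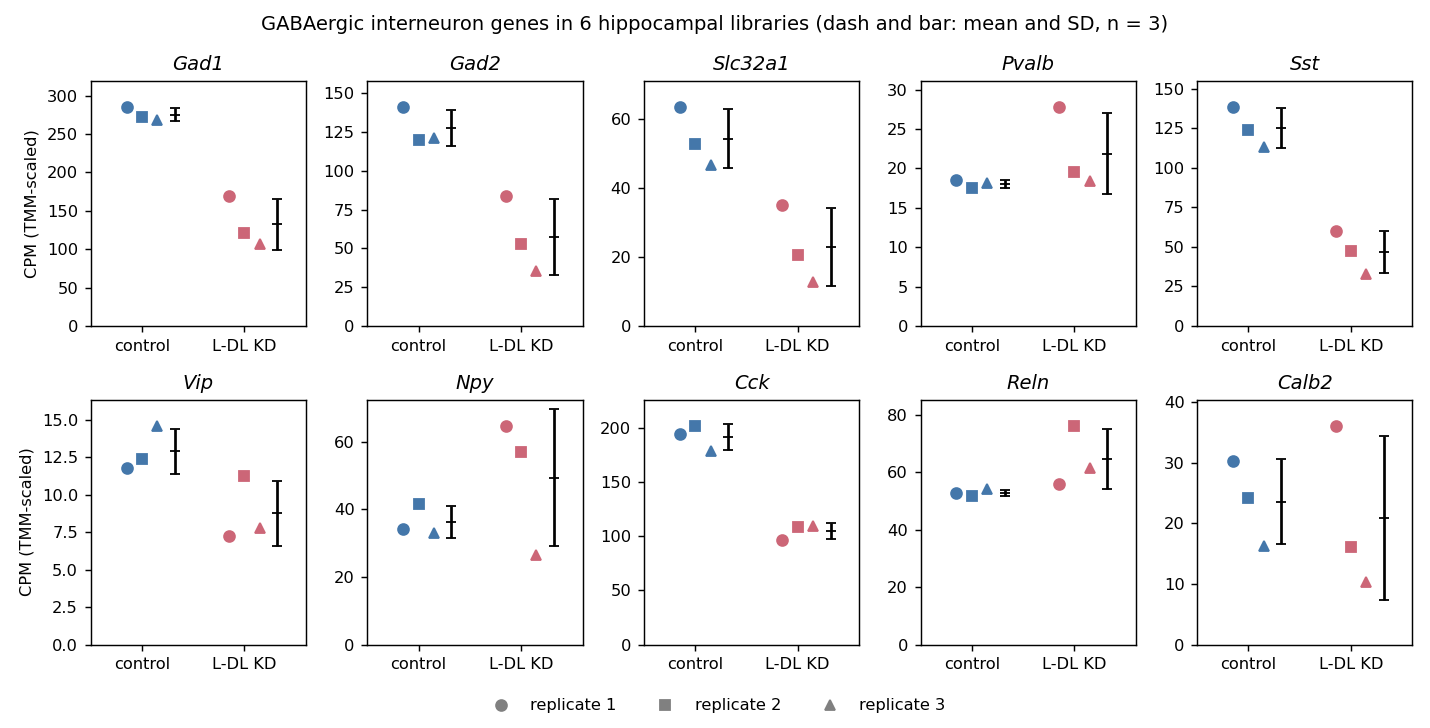
TMM-scaled CPM (y axis, from 0 in each panel) of each of the 10 genes in the 3 control (blue) and 3 L-DL KD (red) libraries, with replicate numbers as marker shapes and the mean and SD of each group as a dash and bar. The KD-labelled libraries lie below all controls for Gad1, Gad2, Slc32a1, Sst, Vip and Cck, above them for Reln, and overlap them for Pvalb, Npy and Calb2.

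Gad1 (ENSMUSG00000070880, chromosome 2, 70553072 to 70602014, GRCm38) had 4619, 4622 and 4222 counts in the controls and 3075, 2148 and 1791 in the KD-labelled libraries. Scaled, this was 285, 272 and 268 CPM against 169, 120.4 and 107 CPM. All 3 KD-labelled libraries lay far below the controls, which were tightly grouped. The mean fell from 275 ± 8.68 to 132 ± 33.0 CPM (SD, n = 3 each), or 48.1% of control, with a log2 fold change of -1.06 (95% interval -1.41 to -0.70, edgeR adjusted p = 0.00198).

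Gad2 (ENSMUSG00000026787, chromosome 2, 22622205 to 22693874) encodes the isoform that is concentrated at nerve terminals. It had 2287, 2042 and 1913 counts in the controls and 1517, 937 and 592 in the KD-labelled libraries, or 141, 120.1 and 121 CPM against 83.6, 52.5 and 35.3 CPM. The groups did not overlap, and the highest KD-labelled library was 2.37 times the lowest. The log2 fold change was -1.16 (95% interval -1.76 to -0.55, edgeR adjusted p = 0.0129), with a mean at 44.8% of control.

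Slc32a1 (ENSMUSG00000037771, chromosome 2, 158610767 to 158615748), the vesicular GABA transporter, had 1030, 900 and 737 counts against 639, 370 and 213. In CPM this was 63.5, 53.0 and 46.8 in the controls and 35.2, 20.7 and 12.7 in the KD-labelled libraries. The order of the 3 KD-labelled libraries was the same for Gad1, Gad2 and Slc32a1, with replicate 1 the highest and replicate 3 the lowest. Slc32a1 fell to 42.1% of control (log2 fold change -1.25, 95% interval -1.97 to -0.52, edgeR adjusted p = 0.0192). Leaving out 1 library ended the call for Gad2 without control replicate 1 (-1.08, adjusted p = 0.0504) and for Slc32a1 without control replicate 1, control replicate 2 or L-DL KD replicate 2 (adjusted p = 0.0727, 0.0536 and 0.0673), while both log2 fold changes stayed at -0.90 or lower with any 1 library left out.

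Somatostatin (Sst, ENSMUSG00000004366, chromosome 16, 23889573 to 23890958, minus strand), the peptide of dendrite-targeting interneurons, fell the most of the 10 genes with all libraries. Without L-DL KD replicate 1, Slc32a1 fell more (log2 fold change -1.70 against -1.63 for Sst). Sst had 2244, 2111 and 1779 counts in the controls and 1086, 847 and 554 in the KD-labelled libraries. In CPM this was 138, 124 and 113 against 59.8, 47.5 and 33.0. The highest KD-labelled library was well below the lowest control. The mean was 37.4% of control (125 ± 12.7 to 46.8 ± 13.4 CPM, SD, n = 3 each), a log2 fold change of -1.42 (95% interval -1.86 to -0.98, edgeR adjusted p = 0.00142).

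Cholecystokinin (Cck, ENSMUSG00000032532, chromosome 9, 121489824 to 121495694, minus strand), the peptide of a class of soma-targeting basket cells and of some pyramidal cells, had 3149, 3434 and 2811 counts in the controls and 1752, 1934 and 1837 in the KD-labelled libraries. In CPM these were 194, 202 and 179 against 96.5, 108 and 109. Both groups were narrow and far apart, and replicate 1 was here the lowest of the KD-labelled libraries rather than the highest. The log2 fold change was -0.87 (95% interval -1.05 to -0.69, edgeR adjusted p = 0.000298), with a mean at 54.7% of control, and this was the smallest standard error of the 10 genes (0.0797). Gad1, Sst and Cck stayed lower at an adjusted p under 0.05 with any 1 library left out.

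Vasoactive intestinal peptide (Vip, ENSMUSG00000019772, chromosome 10, 5639218 to 5647617), of interneurons that largely inhibit other interneurons, had the lowest level per length of the 4 peptide genes. It had 191, 210 and 230 counts in the controls and 132, 201 and 130 in the KD-labelled libraries, or 11.8, 12.4 and 14.6 CPM against 7.27, 11.3 and 7.75 CPM. The KD-labelled libraries were all lower, but replicate 2 came close to the lowest control. The log2 fold change of -0.56 (95% interval -1.01 to -0.11) did not pass the test (edgeR adjusted p = 0.0629). It passed with DESeq2 (adjusted p = 0.0387) and without L-DL KD replicate 2 (-0.77, edgeR adjusted p = 0.0179).

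The remaining 4 genes passed the test in neither direction. Parvalbumin (Pvalb, ENSMUSG00000005716, chromosome 15, 78191114 to 78206400, minus strand), the calcium buffer of fast-spiking basket and axo-axonic cells, had 300, 297 and 286 counts in the controls and 504, 348 and 309 in the KD-labelled libraries. In CPM this was 18.5, 17.5 and 18.2 against 27.8, 19.5 and 18.4. Replicate 1 of the KD-labelled libraries stood clear of the controls, replicate 2 lay just above them and replicate 3 within them. The log2 fold change was 0.28 with a 95% interval of -0.10 to 0.66 (edgeR adjusted p = 0.238). This interval lies above those of Gad1, Gad2 and Slc32a1. The rise rested largely on replicate 1, since without it the log2 fold change was 0.075, and without L-DL KD replicate 3 it was 0.39.

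Neuropeptide Y (Npy, ENSMUSG00000029819, chromosome 6, 49822710 to 49829507), made by many somatostatin and neurogliaform interneurons, had 553, 707 and 520 counts against 1175, 1015 and 446. In CPM this was 34.1, 41.6 and 33.0 in the controls and 64.7, 56.9 and 26.6 in the KD-labelled libraries. Replicates 1 and 2 lay above all controls and replicate 3 below all of them. The log2 fold change of 0.45 (95% interval -0.21 to 1.11) did not pass the test (edgeR adjusted p = 0.276), but without L-DL KD replicate 3 it was 0.75 (adjusted p = 0.0049).

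Reelin (Reln, ENSMUSG00000042453, chromosome 5, 21884454 to 22344702, minus strand), a secreted glycoprotein of dendrite-layer interneurons, was the 1 gene with all KD-labelled libraries above the controls. It had 854, 880 and 850 counts against 1017, 1358 and 1033, or 52.6, 51.8 and 54.0 CPM against 56.0, 76.1 and 61.6 CPM. The rise in replicate 1 was small beside that in the others. The log2 fold change of 0.29 (95% interval 0.03 to 0.55) did not pass after adjustment (edgeR adjusted p = 0.0854), and it passed without L-DL KD replicate 1 (0.39, adjusted p = 0.0121).

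Calretinin (Calb2, ENSMUSG00000003657, chromosome 8, 110137502 to 110168210, minus strand), another calcium-binding protein, had 492, 411 and 257 counts in the controls and 656, 288 and 173 in the KD-labelled libraries. In CPM this was 30.3, 24.2 and 16.3 against 36.1, 16.1 and 10.3, so that 1 KD-labelled library lay above all controls and 2 below all of them, with 16.1 close to the lowest control. Its log2 fold change was -0.18 (95% interval -1.15 to 0.80, edgeR adjusted p = 0.789) and had no stable sign, since it was 0.15 without L-DL KD replicate 3 and -0.83 without L-DL KD replicate 1 (adjusted p = 0.0404).

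Counting groups by overlap alone, 6 of the 10 genes had all KD-labelled libraries below all controls and 1 had them all above. Over all tested genes these shares were 23.4% and 23.8%. The KD-labelled libraries also varied more among themselves. The SD of log2 CPM had a median over the 10 genes of 0.386 in the KD-labelled libraries and 0.137 in the controls, where the medians over all tested genes were 0.174 and 0.120. Replicate 1 was the highest of the KD-labelled libraries for 7 of the 10 genes, and replicate 3 was the lowest for 7.

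**Figure D2:**
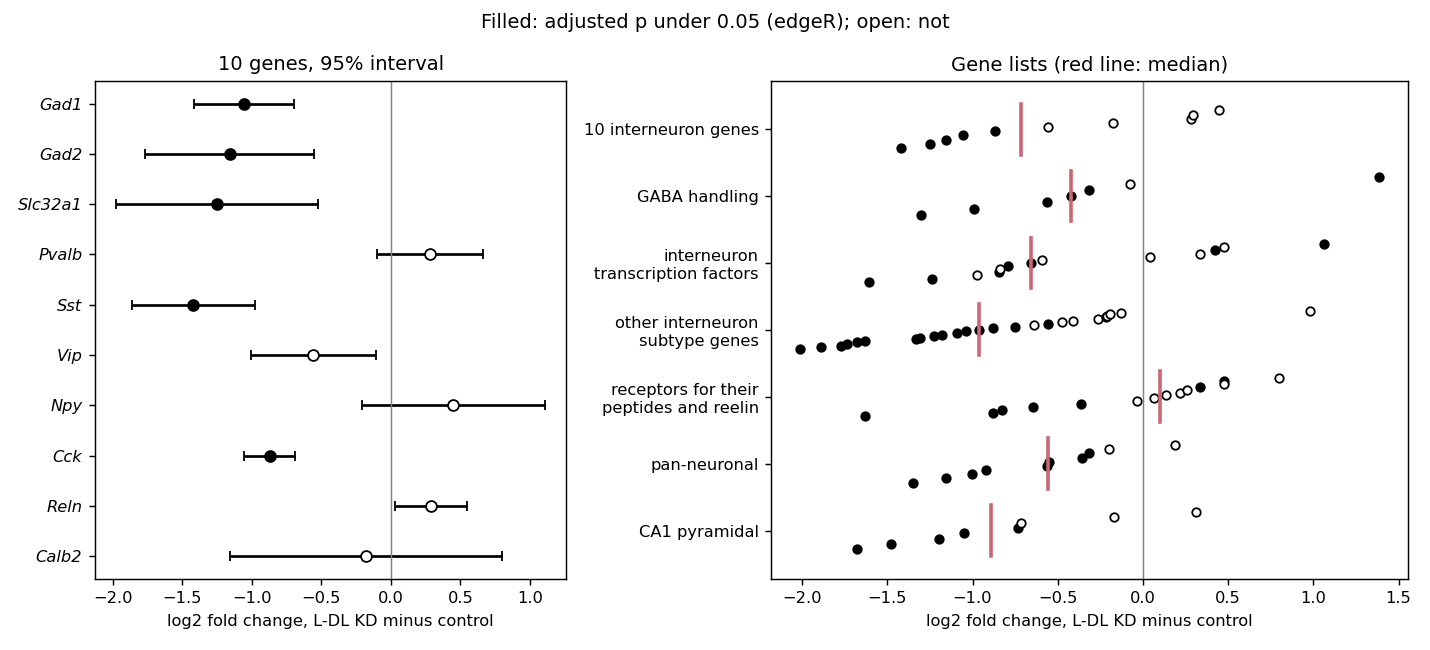
Left, log2 fold change (x axis) of each of the 10 genes with its 95% interval, and right, log2 fold changes of the genes of each list with the list's median as a red line. Filled points passed an edgeR adjusted p under 0.05: 5 of the 10 genes, all lower, with Sst at -1.42 the lowest, and 16 of 25 other subtype genes, all lower.

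Other genes of the same cells were read from lists named by function and cell type, also with earlier results of these data known. Of 25 tested genes of interneuron subtypes, 16 were lower and 0 were higher, with a median log2 fold change of -0.96 (1 was higher at an unadjusted p under 0.05 with edgeR, and 0 with DESeq2). Elfn1, a synaptic protein of somatostatin cells, had 30.9, 28.7 and 25.0 CPM in the controls and 10.7, 5.10 and 5.13 CPM in the KD-labelled libraries (log2 fold change -2.01, edgeR adjusted p = 0.00166). Lamp5, a membrane protein of neurogliaform cells, had 26.1, 34.2 and 25.4 CPM against 8.71, 8.30 and 6.08 CPM (-1.89, edgeR adjusted p = 0.000350). Both were lower in every KD-labelled library than in any control.

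The lower genes of this list fell into several classes of interneuron. Kcnc2 (-1.68), a potassium channel subunit of fast-spiking cells, and Syt2 (-1.77), a vesicle calcium sensor of parvalbumin terminals, were lower, whereas Pvalb did not pass the test. Cort (-1.31) and Crhbp (-1.63) are expressed with Sst. Slc17a8 (-1.73), a vesicular glutamate transporter, and Cnr1 (-0.96), the cannabinoid receptor, belong to cholecystokinin cells. Among the 9 genes that did not pass were Ndnf (-0.26), Kit (-0.22) and Cxcl14 (-0.13), all of neurogliaform and related cells, and the peptide gene Penk (0.98). Sncg (-0.19), also of cholecystokinin cells, did not pass either. These genes outside the naming rule were picked after their values were seen, to show the classes.

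Among 13 transcription factors of interneurons, 5 were lower and 2 were higher, with a median log2 fold change of -0.66. Of all tested genes 15.0% were lower and 15.6% higher, and the share of higher factors is near the latter. Dlx1, a homeobox factor shared by GABAergic neurons of the forebrain, had 39.0, 36.6 and 36.3 CPM in the controls and 19.3, 11.2 and 6.20 CPM in the KD-labelled libraries (-1.60, edgeR adjusted p = 0.00892). Lhx6, which specifies parvalbumin and somatostatin cells, had 15.2, 12.8 and 17.7 CPM against 6.39, 7.51 and 5.42 CPM (-1.24, edgeR adjusted p = 0.00189). The groups were apart for both.

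Among the higher factors was Maf (0.42, edgeR adjusted p = 0.0142), which is also expressed in microglia. All 10 genes of a microglia list were higher in the KD-labelled libraries, with summed levels of 1184 to 1479 CPM in the controls and 2544 to 3256 CPM in the KD-labelled libraries. The part of these cells in the value of Maf, and in those of the 10 interneuron genes, was not tested.

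Of 7 genes that handle GABA outside its synthesis, 5 were lower and 1 was higher, with a median log2 fold change of -0.42. As a share, the 1 higher gene is near the 15.6% of all tested genes. Slc6a11 (GAT-3), a GABA transporter of astrocytes, had 125, 119 and 117 CPM in the controls and 48.9, 45.6 and 51.4 CPM in the KD-labelled libraries (-1.31, edgeR adjusted p = 8.10e-05). It varied little among the KD-labelled libraries, in contrast to Gad2 and Slc32a1.

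The GABA-B receptor subunits Gabbr1 (-0.42) and Gabbr2 (-0.32) and the degrading enzyme Aldh5a1 (-0.57) were lower as well, and Abat, the GABA transaminase, had a log2 fold change of -0.07 that did not pass. Slc6a13 (GAT-2), a transporter of the meninges and vessels, was higher at a low level, with 5.24, 2.41 and 5.59 CPM against 11.7, 6.28 and 16.5 CPM (1.38, edgeR adjusted p = 0.0342), and its call was lost when any 1 control or L-DL KD replicate 3 was left out.

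Of 14 tested receptors for the peptides and for reelin, 5 were lower and 2 were higher, with a median log2 fold change of 0.10. The share that was higher is near the 15.6% of all tested genes. Sstr4, a somatostatin receptor of CA1 pyramidal cells, had 28.2, 17.5 and 20.6 CPM in the controls and 6.72, 8.47 and 6.20 CPM in the KD-labelled libraries (-1.63, edgeR adjusted p = 0.00114). Npy2r, a presynaptic receptor for neuropeptide Y, had 34.0, 37.8 and 36.2 CPM against 25.1, 14.1 and 19.5 CPM (-0.88, edgeR adjusted p = 0.0102). The groups were apart for both genes, and Cckbr (-0.83), Npy5r (-0.64) and Dab1 (-0.36), the adaptor of the reelin pathway, were lower too. The higher ones were Adcyap1r1 (0.48, edgeR adjusted p = 0.0388), a receptor for PACAP and, weakly, VIP, and the reelin receptor Lrp8 (0.33, edgeR adjusted p = 0.00654). Sstr5 and Cckar had too few counts to be tested.

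The falls were not restricted to interneuron genes, so the 10 genes were also set against other neuronal genes. Of 10 pan-neuronal genes 8 were lower and 0 were higher (median log2 fold change -0.56), and of 8 genes of CA1 pyramidal cells 5 were lower and 0 were higher (median -0.89). None of either list was higher at an unadjusted p under 0.05 with edgeR, or with DESeq2. Rbfox3, which encodes NeuN, had a log2 fold change of -1.35 and Pou3f1, a transcription factor of CA1, one of -1.68. Each was the largest fall of its list, and no smaller than those of Gad1 and Slc32a1. The medians of both lists were smaller falls than those of Gad1 (-1.06) and Slc32a1 (-1.25).

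Within each library, the log2 level of each gene was then taken relative to the median log2 level of the pan-neuronal list. Relative to it, the difference between groups (log2 units, KD-labelled libraries minus control) was -1.01 for Gad1, -1.17 for Gad2, -1.27 for Slc32a1, -1.38 for Sst and -0.80 for Cck, with no overlap. For Pvalb it was 0.32, also with no overlap. For each of these 6 genes the two-sided exact permutation test gave p = 0.1, the smallest that 3 against 3 allows, so the design cannot reach 0.05. Vip (-0.48), Npy (0.42), Reln (0.34) and Calb2 (-0.25) overlapped between groups.

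The size of these values depended on the reference. The median level of the pan-neuronal list was at 8.31, 8.25 and 8.26 log2 CPM in the controls and at 8.45, 8.24 and 7.92 in the KD-labelled libraries, although most of its genes fell. Against the mean of the list the differences were -0.45 for Gad1, -0.60 for Gad2, -0.71 for Slc32a1, -0.82 for Sst and -0.24 for Cck, and those of Pvalb, Npy and Reln were 0.88, 0.98 and 0.91. Against the genes of CA1 pyramidal and dentate granule cells, Gad1 differed by -0.09 (two-sided exact permutation test, p = 0.4), Sst by -0.46 and Pvalb by 1.24 (p = 0.1 for both). Sst was lower and Pvalb higher relative to other neuronal genes, with the groups apart, by all 3 measures, and the distance of Gad1 from other neuronal genes ranged from -1.01 to -0.09.

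**Figure D3:**
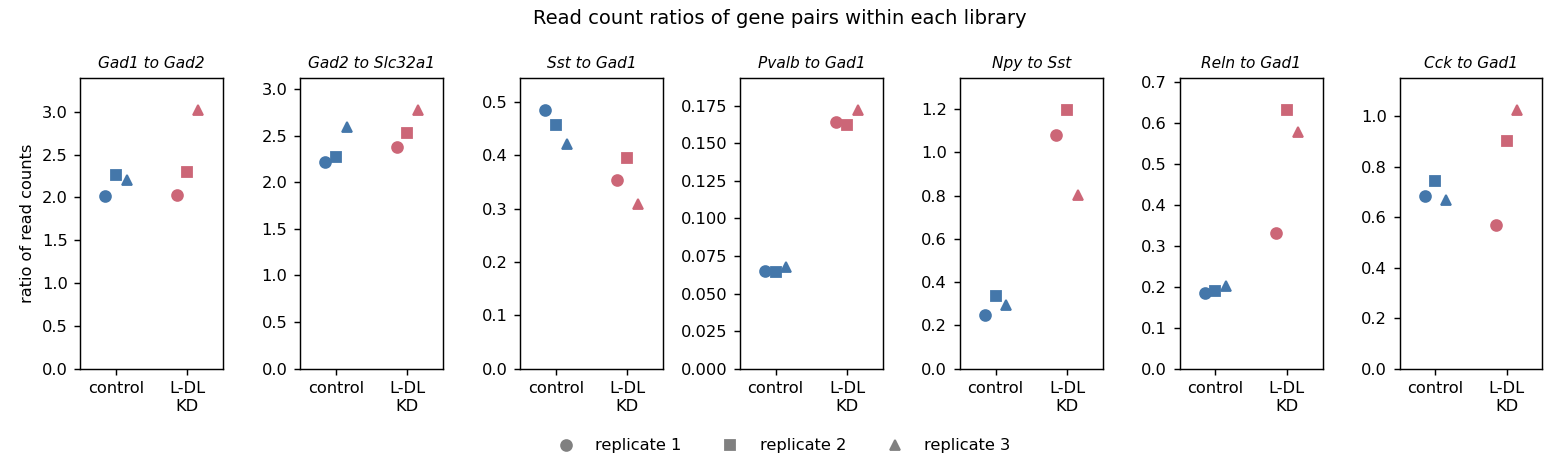
Ratio of read counts of 7 gene pairs within each library (y axis from 0 in each panel), for controls in blue and KD-labelled libraries in red, with replicate numbers as marker shapes. The ratio of Pvalb to Gad1 lies at 0.0643 to 0.0677 in the controls and 0.162 to 0.173 in the KD-labelled libraries, while that of Gad1 to Gad2 overlaps.

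Ratios of counts within a library need no scaling and show how the 10 genes moved against each other. The 7 pairs were chosen with values known, so the ratios are given as a description of these libraries. Pvalb had 0.0649, 0.0643 and 0.0677 reads for each read of Gad1 in the controls and 0.164, 0.162 and 0.173 in the KD-labelled libraries. The ratio was narrow within each group and 1.34 log2 units higher in the KD-labelled libraries, although both genes varied among these. The ratio of Npy to Sst was 0.246, 0.335 and 0.292 in the controls and 1.08, 1.20 and 0.805 in the KD-labelled libraries (1.81 log2 units higher).

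Reln to Gad1 was 0.185, 0.190 and 0.201 in the controls and 0.331, 0.632 and 0.577 in the KD-labelled libraries, which is 1.36 log2 units higher with a wide spread. Sst to Gad1 differed by -0.37 log2 units, with 0.421 to 0.486 in the controls and 0.309 to 0.394 in the KD-labelled libraries. For these 4 ratios the groups were apart. The ratios of Gad1 to Gad2 (2.02 to 2.26 and 2.03 to 3.03), Gad2 to Slc32a1 (2.22 to 2.60 and 2.37 to 2.78) and Cck to Gad1 (0.666 to 0.743 and 0.570 to 1.03) overlapped between groups.

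**Figure D4:**
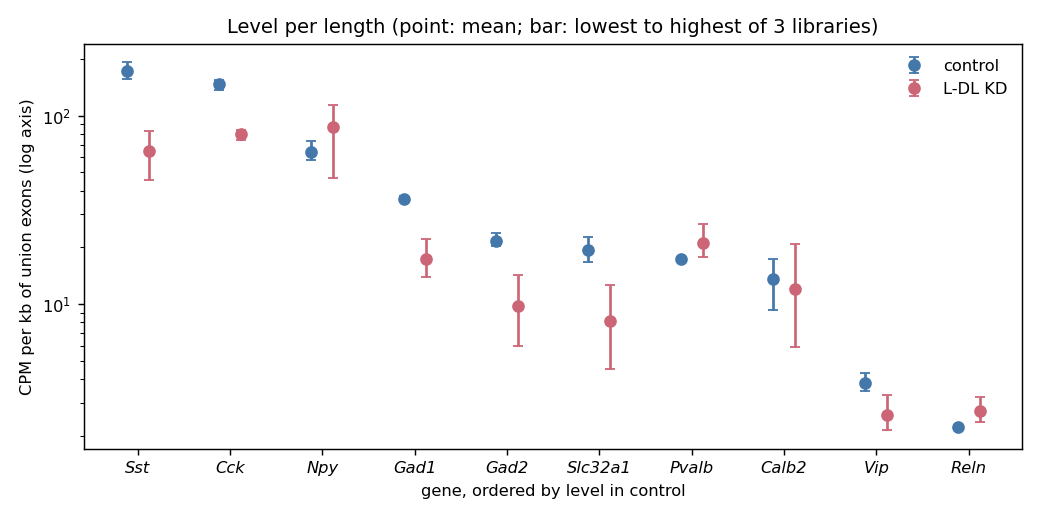
CPM per kb of union exon length on a log axis for the 10 genes, ordered by the control mean, with the mean as a point and the lowest to highest of 3 libraries as a bar. Sst is the highest in the controls at 174 and Reln the lowest at 2.22, and Npy is the highest in the KD-labelled libraries at 87.3.

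To compare levels between genes, CPM was divided by the length of the gene's merged exons. In the controls, Sst was the highest with 174 ± 17.6 CPM per kb (SD, n = 3), followed by Cck with 147 ± 9.17, Npy with 64.0 ± 8.26 and Gad1 with 36.0 ± 1.14. Gad2 (21.7), Slc32a1 (19.5), Pvalb (17.3) and Calb2 (13.5 CPM per kb) came next, and neighbours among these 4 overlapped. Vip (3.80) and Reln (2.22 CPM per kb) were the lowest.

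In the KD-labelled libraries the order changed. Npy (87.3), Cck (80.3) and Sst (64.9 CPM per kb) led, each overlapping the next, and Pvalb stood above Gad1 (17.3), which it overlapped. Gad2 and Slc32a1 followed Calb2, at 9.72 and 8.18 CPM per kb. With the longest transcript as the length, Cck was the highest in the controls (240 CPM per kb) and Gad1 stood above Npy (76.3), since merged exons of Gad1 run to 7639 nt and its longest transcript to 3601 nt.

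Promoters were read because the peptide genes are textbook targets of the transcription factor CREB, which binds the cAMP response element TGACGTCA. RefSeq promoters (250 bases before to 50 after a gene's start, GRCm38.p6) were at hand for 9 of the 10 genes, all but Calb2. The whole element was found, on either strand, in 1 of them, Sst, and in 1.79% of all 32851 promoters. The shorter site TGACG, which the whole element holds on both strands, was found in 4 of them (Sst, Gad2, Vip and Cck) and in 20.8% of all promoters. The 4 windows are shown 5′ to 3′ on the gene's strand, with the site in capitals (CGTCA is TGACG read on the other strand):
Sst promoter, chr16:23890874-23890903, minus strand: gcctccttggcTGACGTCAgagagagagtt
Cck promoter, chr9:121495724-121495753, minus strand: cctgctggactgCGTCAgcactgggtaaac
Gad2 promoter, chr2:22622282-22622311, plus strand: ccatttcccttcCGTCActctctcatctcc
Vip promoter, chr10:5639127-5639156, plus strand: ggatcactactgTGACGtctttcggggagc

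The site began 48 bases before the RefSeq start in Sst, 47 in Cck, 33 in Gad2 and 79 in Vip. Of these 4 genes, Sst, Cck and Gad2 were lower and Vip did not pass the test. Gad1 and Slc32a1, which were also lower, held no TGACG in this window, and neither did Pvalb, Npy and Reln. A match describes letters only, and binding was not measured.

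Splicing of the 10 genes was read from junction counts of 7 skipped exon events and 1 retained intron. PSI, the share of transcripts that include the segment, was computed for each library from the counts of the inclusion and skipping forms divided by their effective lengths. The splicing table numbers no replicates, so its 3 columns of a group are given in the order of the table. Of the 8 events, 4 had enough counts of both forms to be tested (a mean of at least 20 junction counts per library, and 1 of each form), and none passed at an adjusted p under 0.05, nor at an unadjusted p under 0.05, by edgeR or by limma. Over all 18829 tested events 0.255% passed. No event was listed for Gad2, Slc32a1, Sst and Npy.

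The Gad1 event is an exon of 80 nt (chromosome 2, 70584420 to 70584499) that is known from embryonic tissue, where its in-frame stop codon shortens the protein. The coding bases of the exon are shown with the stop codon in capitals, since including it ends the reading frame (exon 7 of a GENCODE M21 transcript, plus strand):
Gad1 exon, chr2:70584420-70584456: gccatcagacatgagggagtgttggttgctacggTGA

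Its junctions were nearly always skipped. The inclusion form had 0, 10 and 3 counts in the controls and 2, 2 and 1 in the KD-labelled libraries, beside 270, 273 and 237 and 204, 132 and 93 counts of the skipping form. PSI was 0, 0.0234 and 0.00820 against 0.00637, 0.00980 and 0.00698, so the groups overlapped (edgeR adjusted p = 0.915 for the log2 ratio of the forms). The 0 of 270 counts of the first control allows a share of up to 1.11% (3 counts, counting error only). At this depth, the fall of Gad1 counts was not accompanied by a detectable change in this exon.

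The Reln event is a microexon of 6 nt (chromosome 5, 21891562 to 21891567, minus strand, exon 64 of a GENCODE M21 transcript). It is shown in capitals within the flanking exon bases, because it had the largest difference in PSI of the 8 events:
Reln microexon, GRCm38: ggaggtcgtcctAGTAAGcactcgcaaaca

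The inclusion form had 1, 9 and 1 counts in the controls and 1, 0 and 0 in the KD-labelled libraries, beside 9, 7 and 14 and 7, 18 and 20 counts of the skipping form. Of the 11 inclusion counts of the controls, 9 were in 1 library. The event had too few counts for the test, and with the minimum lowered to 10 junction counts its adjusted p was 0.441 (edgeR, unadjusted p = 0.0724). A second Reln event shares its start and skipping counts and spans 136 nt, with 14 inclusion counts in the controls and 11 in the KD-labelled libraries.

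The other events lay near full inclusion or full skipping, apart from the Vip intron. Vip intron retention (chromosome 10, 5640735 to 5642468) had PSI of 0.0612, 0.0303 and 0.103 in the controls and 0.0357, 0.0645 and 0.143 in the KD-labelled libraries, on 26 to 36 junction counts per library (edgeR adjusted p = 0.927). Cck had 2 events, exons of 163 and 190 nt, with 5 and 7 inclusion counts beside 4672 skipping counts in the controls and 7 and 2 beside 2746 in the KD-labelled libraries (edgeR adjusted p = 0.755 and 0.840). Pvalb had an exon of 133 nt that was skipped in 3 counts, all in 1 KD-labelled library, beside 1111 inclusion counts in that group. Calb2 had an exon of 90 nt skipped in 1 count of a control library, beside 349 inclusion counts.

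Some values moved with single libraries. The summed level of 5 choroid plexus genes was 1708, 437 and 4607 CPM in control replicates 1 to 3 and 5155, 116 and 29.6 CPM in L-DL KD replicates 1 to 3, and replicate 1 was the KD-labelled library that was highest for Gad1, Gad2, Slc32a1, Sst, Pvalb, Npy and Calb2. Without the library of each group with the most choroid plexus RNA (control replicate 3 and L-DL KD replicate 1, an alternative chosen after seeing the data), 6 genes were lower and 1 was higher. The log2 fold changes were then -1.30 for Gad1, -1.58 for Gad2, -1.80 for Slc32a1, -1.71 for Sst and -0.87 for Cck, each past the test. Calb2 (-1.05) and Reln (0.39) passed it as well. Control replicate 3 was also the lowest control for Gad1, Slc32a1, Sst and Calb2. Leaving out both libraries therefore widens the falls of these genes by itself, and their larger falls here add no support.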

How the data were processed

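Deposited by the authors were unnormalised read counts of Ensembl genes, from 150 nt read pairs aligned to GRCm38, and rMATS junction counts of the inclusion and skipping form of each event with their effective lengths. Bowtie 1.1.2, HISAT2 2.1.0 and HTSeq 0.6.1 are listed in the submitters' processing notes without a role, and the strand setting of counting is not given in the sources used here, so reads of a gene and an antisense gene are not told apart. The rMATS p-values, FDR and PSI differences hold the authors' own comparison and were not used. Sample 1 of the splicing table was taken as L-DL KD, from the paper's definition of the PSI difference. Gene symbols came from GENCODE M21 and matched 52403 of 52550 identifiers.

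Genes reaching 10 counts in 3 or more libraries were normalised by TMM, then tested in edgeR (version 4.0.16, quasi-likelihood, Benjamini-Hochberg adjustment over 17621 genes) in R 4.3.3. Events were tested with edgeR on the counts of both forms with an effect for each library. log2 levels used a pseudocount of 0.5 CPM. Levels relative to other neuronal genes were compared with a two-sided exact permutation test (scipy 1.17.1), with a smallest p of 0.1. On simulated data with known changes, both models were tested first. Alternatives were DESeq2 1.42.0, limma 3.58.1, other scaling, filters and lengths, a replicate block and leaving out libraries.

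The 10 genes and the lists were chosen with earlier results of these data known. Named from each other list were the 2 largest rises and 2 largest falls among genes past the test, or the 2 most abundant genes where none passed, and others are said to be picked by value. Some genes of these lists are not reported here by name.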

Additional observations from a re-analysis of the deposited data

How the results depend on the processing

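The falls of Gad1, Sst and Cck kept their direction and stayed past the test in every alternative fit of expression. Levels relative to other neuronal genes are treated separately below. With 1 library left out, log2 fold changes ranged from -1.53 to -0.90 for Gad2, -1.70 to -0.95 for Slc32a1, -0.77 to -0.44 for Vip, 0.075 to 0.39 for Pvalb, 0.21 to 0.75 for Npy, 0.16 to 0.39 for Reln, -0.83 to 0.15 for Calb2 (0.04 without control replicate 1) and -0.13 to 0.15 for Hnrnpdl (0.00 without control replicate 3). The number of the 10 genes called lower ranged from 3 to 6 and higher from 0 to 1. Genes called higher ranged from 0 to 1 for GABA handling, 1 to 3 for transcription factors, 0 to 1 for other subtype genes and 1 to 4 for receptors, and lower receptors from 3 to 5. Vip passed with DESeq2 (-0.56). Without control replicate 3 and L-DL KD replicate 1, Gad2 was at -1.58, Slc32a1 at -1.80, Vip at -0.35, Pvalb at 0.071, Npy at 0.14, Reln at 0.39, Calb2 at -1.05 and Hnrnpdl at -0.16, and 1 of the 10 genes was higher. Without the low-count filter, 1 other subtype gene was higher. Without control replicate 1, the number of lower genes went from 8 to 5 for the pan-neuronal list and from 5 to 3 for the CA1 pyramidal list.

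With the replicate number as a block, 5 of the 10 genes were lower, no call among the 10 changed, and 1 receptor was higher in place of 2, while calls over all genes went from 5379 to 4635. The numbers pair the libraries in name only: the correlations of same-numbered libraries' deviations were 0.05, 0.11 and -0.09. The splicing table gives no replicate numbers, so no paired fit of events was made.

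Relative to other neuronal genes, Vip turned to 0.077 and Calb2 to 0.31 with the mean of the list, Vip to 0.44, Cck to 0.12 and Calb2 to 0.67 with the CA1 and dentate genes, and Calb2 ranged from -0.61 to 0.0062 with 1 library left out. The log2 ratio of forms of the Gad1 exon was 0.61 with limma against -0.39 with edgeR, and with 1 column left out ranged from -1.01 to 0.98, as that of the Vip intron did from -0.32 to 0.86. With the longest transcript as the length, levels per kb were 240 and 131 (control and L-DL KD) for Cck, 76.3 and 36.7 for Gad1, 18.5 in the controls for Pvalb, 5.10 and 3.46 for Vip, and 4.51 and 5.52 for Reln. The causes of these changes were not tested, beyond fewer samples and other references. Depth limits the splicing events of Reln and Vip, which had 8 to 36 junction counts per library.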

Other observations

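Other cell types of the tissue gave the following values, as numbers of genes past edgeR's test and median log2 fold changes of the libraries labelled L-DL KD against control. Of 8 dentate granule cell genes, 1 was higher (Stxbp6, 0.63) and 3 were lower (Tdo2 at -1.43 and Dsp at -1.05 among them), with a median of -0.24. Of 2 mossy cell genes, Csf2rb2 was higher (1.20) and Drd2 did not pass, and of 3 tested Cajal-Retzius genes none passed (Trp73 at -0.11 and Ebf3 at 0.35). At an unadjusted p under 0.05 with edgeR, and with DESeq2, 0 of the Cajal-Retzius genes and 0 of the choroid plexus genes passed.

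Of 8 astrocyte genes, 4 were lower (S100b at -0.72 and Gja1 at -0.67 among them) and 1 was higher (Aqp4, 0.67). Of 8 oligodendrocyte genes, 1 was higher (Mag, 0.71). Of 6 endothelial genes, 3 were higher (Cldn5 at 1.08 and Pecam1 at 0.61 among them). All 10 microglia genes were higher, led by Itgam (1.58) and Cx3cr1 (1.53). Of 5 choroid plexus genes none passed (Ttr at -0.34, Kl at -0.40). Neighbouring regions gave 1 higher gene (Tcf7l2, 0.59) and 1 lower (Lhx9, -0.69) of 4 for thalamus, and 1 higher gene of 5 for striatum. That gene was Drd1, a dopamine receptor, with a mean of 3.01 ± 1.41 CPM in the controls and 17.7 ± 2.61 CPM in the libraries labelled L-DL KD (SD, n = 3 each, log2 fold change 2.56, edgeR adjusted p = 0.000749), while the other 4 striatal genes did not pass.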
